A study of Mus musculus with 24 samples.

Results

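The response of WT MEFs (mouse embryonic fibroblasts) to torin1 was taken from 8 of the 24 libraries of the series, the 4 labelled wild type and Torin-1 and the 4 labelled wild type and DMSO. The cells were a wild-type line that another laboratory provided together with the *tfeb tfe3* DKO line, which lacks the transcription factors TFEB and TFE3 by genotype. Cultures received 100 nM torin1 or vehicle (0.1% DMSO), as the methods and legends of the study state, and how long the sequenced cells were treated is not given in the sources used here. Each group held 1 culture at each of passages 7, 8, 9 and 11, so the 4 replicates of a group are separate cultures of 1 line, and p-values measure the spread between such cultures. Polyadenylated RNA was sequenced as pairs of 52 bp reads. Counts per gene are the deposited estimates of salmon. The remaining 16 libraries are WT MEFs with the AMPK activator MK-8722 and *tfeb tfe3* DKO MEFs with DMSO, torin1 or MK-8722. They entered the fit to estimate the spread between replicates, and of them the values for *tfeb tfe3* DKO with DMSO and torin1 are given near the end.

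Torin1 blocks the catalytic site of MTOR, the kinase of 2 complexes. MTORC1 sits on lysosomes and, when amino acids and growth factors are plentiful, favours the making of proteins, ribosomes, nucleotides and lipids, and it restrains autophagy and keeps TFEB and TFE3 in the cytosol. Part of its effect on transcription passes through ATF4 (amino acid and one-carbon synthesis), the SREBPs (sterol and fatty acid synthesis), HIF1A (glycolysis) and MYC. MTORC2 phosphorylates AKT, which excludes FoxO factors from the nucleus.

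Total counts on genes were 26580971 to 33332507 per DMSO library and 26186033 to 29857437 per torin1 library, and the RNA integrity number was 9.8 or 9.9. Values below are CPM, counts relative to the total of the library, scaled with TMM, a method that sets the typical gene to no change. Its factors were 0.997 to 1.02 with DMSO and 1.07 to 1.08 with torin1, and less RNA per cell or fewer cells cannot be told apart from these counts. The first principal component of log2 CPM held 54.6% of the variance and separated torin1 from DMSO, and the second held 21% and separated passage 11 from passages 7, 8 and 9 in both groups. The 12 fibroblast markers summed to 7138 to 10400 CPM with DMSO and 7710 to 9954 CPM with torin1, although *Thy1* was counted at only 3.12 ± 0.540 CPM in DMSO and 2.93 ± 0.565 CPM in torin1 cultures (SD, n = 4). Of these 12, 5 were downregulated and 3 upregulated by the thresholds given below, shares of 41.7% and 25% against 20.5% and 26.6% over all genes. Similar sums thus hid changes of single fibroblast markers in both directions. Markers of other cell types were low, but their sums did not overlap between the groups for 4 types. The 8 epithelial markers summed to 3.01 to 4.77 CPM with DMSO and 5.84 to 8.24 CPM with torin1, the 6 endothelial markers to 0.273 to 0.663 and 1.24 to 1.63 CPM, the 5 muscle markers to 3.03 to 3.69 and 5.67 to 6.98 CPM, and the 5 adipocyte markers to 2.90 to 3.997 and 5.19 to 6.63 CPM. The member with the highest mean of each type rose. These were *Krt8* (mean 2.19 CPM with DMSO and 4.17 CPM with torin1), *Vwf* (0.208 and 0.622 CPM), *Des* (3.34 and 6.24 CPM) and *Pparg* (2.98 and 5.08 CPM). Other members, *Cldn5* and *Myod1*, were at 0 in all 8 libraries, and *Epcam*, *Cdh5*, *Ckm* and *Adipoq* were under 1 CPM in each. The 5 neural markers summed to 42.8 to 57.0 CPM with DMSO and 42.4 to 44.7 CPM with torin1, nearly all from *Tubb3*, a tubulin, which fell (from 32.7 ± 5.72 to 16.2 ± 2.62 CPM), and *Map2*, which rose (from 19.4 ± 0.736 to 27.1 ± 2.12 CPM, SD, n = 4), while *Sox10*, *Gfap* and *Elavl3* were under 1 CPM in each library. The 7 immune markers, with *Adgre1* and *Tyrobp* at 0, summed to at most 0.750 CPM in any of the 8 libraries. The part of other cell types in the results was not tested.

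With torin1, most tested mRNAs for amino acid and sterol synthesis, tRNA charging, ribosome production, oxidative phosphorylation, glycolysis and proteasomes were lower in WT MEFs. Most lysosomal mRNAs and those of *Foxo1* and *Foxo3* were higher. Of 15401 genes tested, 4100 (26.6%) were upregulated and 3153 (20.5%) were downregulated compared to vehicle, when a fold change (FC) of 1.2 or more was required with a false discovery rate (FDR, the Benjamini-Hochberg adjusted p of edgeR's quasi-likelihood test) under 0.05. The CPM of the 4 torin1 libraries did not overlap those of the 4 DMSO libraries for 8337 genes (54.1%). The sign of the change was the same at each of the 4 passages for 3993 of the upregulated (97.4%) and 3114 of the downregulated genes (98.8%). The median log2 fold change was 0.67 over the upregulated and -0.48 over the downregulated genes, and 0.05 over all genes tested. Rises were the larger changes, with 1087 genes up and 255 down by at least 2-fold, 134 and 32 by at least 4-fold, and 16 and 7 by at least 8-fold.

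Of all calls, 56.5% were upward. This split depended on the scaling, the filter and the libraries. Library size alone gave 5021 genes up and 2337 down (68.2% upward) and moved the median of all genes to 0.14. Upper-quartile scaling gave 4866 and 2464 (66.4% upward). With at least 10 counts required in each of the 8 libraries, 3449 were up and 3245 down (51.5% upward), and the median of all genes was 0.0075. Without the 2 libraries of passage 11 the counts were 3666 and 3374 (52.1% upward). The direction also went with the level. In the quintile of genes with the lowest counts (median 0.514 CPM) 28.8% were upregulated and 4.61% downregulated, in the next quintile 43.4% and 11.2%, and in the quintile with the highest counts (median 138 CPM) 11.7% and 35.9%. The main filter could admit a gene through the counts of 1 group alone. Some genes of low level may thus have been tested only because they were high with torin1. Of 938 long noncoding RNAs tested, 43.4% were upregulated and 6.4% downregulated, and of 12846 protein-coding genes 26.9% and 22.8%. Whether level, RNA class or this selection by the filter sets the direction was not tested.

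**Figure D1:**
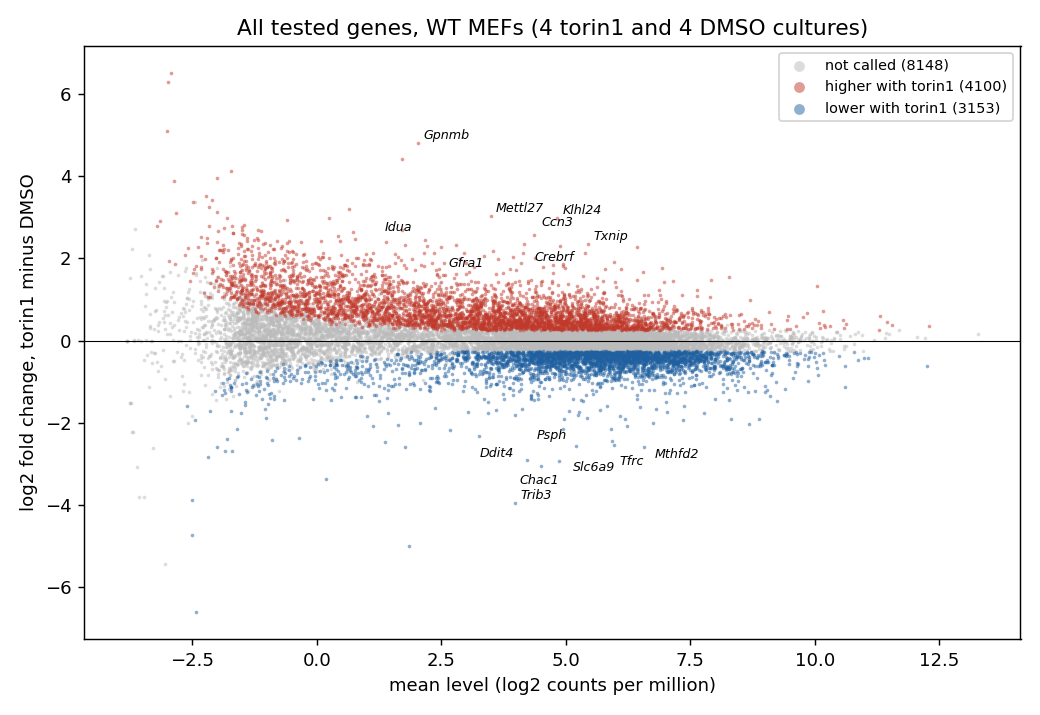
Log2 fold change of torin1 against DMSO in WT MEFs (y axis) against the mean level in log2 CPM over the 8 libraries (x axis), 1 point per tested gene, red for the 4100 upregulated and blue for the 3153 downregulated genes. Low-level genes lie mostly above the line of no change, and genes with the largest changes among those of at least 2 log2 CPM are named.

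The 8 largest rises, among genes that averaged 2 log2 CPM or more without overlap between the groups, were those of *Gpnmb*, *Mettl27*, *Klhl24*, *Ccn3*, *Idua*, *Txnip*, *Crebrf* and *Gfra1*. *Gpnmb*, a glycoprotein of lysosomes and melanosomes and a known TFEB and TFE3 target, was counted at 0.769, 1.05, 0.443 and 0.813 CPM in the DMSO and 24.9, 26.97, 20.4 and 13.6 CPM in the torin1 cultures, at passages 7, 8, 9 and 11 in that order here and below. It rose 27.9-fold (log2 fold change 4.80, SE 0.30, adjusted p = 4.90e-12), and its lowest value with torin1 lay far above its highest with DMSO. *Klhl24*, an adaptor of a ubiquitin ligase that acts on keratin, was counted at 8.92, 9.93, 10.6 and 11.0 CPM in the DMSO and 81.4, 84.3, 74.1 and 79.4 CPM in the torin1 cultures and rose 7.88-fold (log2 fold change 2.98, SE 0.10, adjusted p = 3.99e-16). The 4 torin1 cultures were close to each other, and the error of *Klhl24* was the second smallest of these 8 genes. *Mettl27*, which is named for a methyltransferase domain, rose 8.19-fold, from 3.90 ± 0.361 to 31.98 ± 3.05 CPM (SD, n = 4). *Ccn3*, a matricellular protein, rose 5.96-fold, from 8.46 ± 1.13 to 50.4 ± 3.91 CPM (SD, n = 4). *Idua*, the lysosomal enzyme that removes iduronic acid from glycosaminoglycans, rose 5.44-fold, from 1.89 ± 0.213 to 10.3 ± 0.771 CPM (SD, n = 4). *Txnip*, the thioredoxin-binding arrestin that limits glucose uptake, was counted at 24.01, 15.3, 15.7 and 23.6 CPM in the DMSO and 82.3, 87.8, 105 and 126 CPM in the torin1 cultures and rose 5.08-fold. All its torin1 values lay above those with DMSO. *Crebrf*, a regulator of the stress factor CREB3 and of growth, was counted at 6.89, 7.91, 7.97 and 8.97 CPM in the DMSO and 39.3, 38.5, 38.3 and 44.4 CPM in the torin1 cultures and rose 5.05-fold. *Gfra1*, the coreceptor of the neurotrophic factor GDNF, rose 4.97-fold, from 3.09 ± 0.680 to 15.5 ± 1.97 CPM (SD, n = 4).

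The 8 largest falls under the same condition included those of *Trib3*, *Chac1*, *Slc6a9*, *Ddit4*, *Mthfd2*, *Psph* and *Tfrc*. *Trib3*, a pseudokinase that binds AKT and ATF4, was counted at 61.5, 52.1, 68.8 and 65.9 CPM in the DMSO and 3.10, 4.01, 3.43 and 5.62 CPM in the torin1 cultures and fell 15.4-fold (log2 fold change -3.94, SE 0.29, adjusted p = 7.18e-11). *Chac1*, which degrades glutathione, was counted at 59, 59.2, 68.9 and 73.8 CPM in the DMSO and 8.56, 9.17, 5.85 and 8 CPM in the torin1 cultures and fell 8.27-fold (log2 fold change -3.05, SE 0.17, adjusted p = 9.01e-13). Every torin1 culture lay well below every DMSO culture for both genes. *Slc6a9*, a glycine transporter, fell 7.56-fold, from 81.4 ± 17.1 to 10.7 ± 2.69 CPM (SD, n = 4). *Ddit4*, which encodes REDD1, an inhibitor of MTORC1, was counted at 44.6, 46.7, 52.9 and 58.9 CPM in the DMSO and 6.49, 7.34, 6.99 and 6.27 CPM in the torin1 cultures and fell 7.501-fold (log2 fold change -2.91, SE 0.13, adjusted p = 3.02e-14). *Tfrc*, the transferrin receptor through which cells take up iron, was counted at 154, 173, 142 and 139 CPM in the DMSO and 31.4, 30.1, 21.3 and 21.5 CPM in the torin1 cultures and fell 5.83-fold. *Mthfd2* and *Psph* are described below with their pathway.

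**Figure D2:**
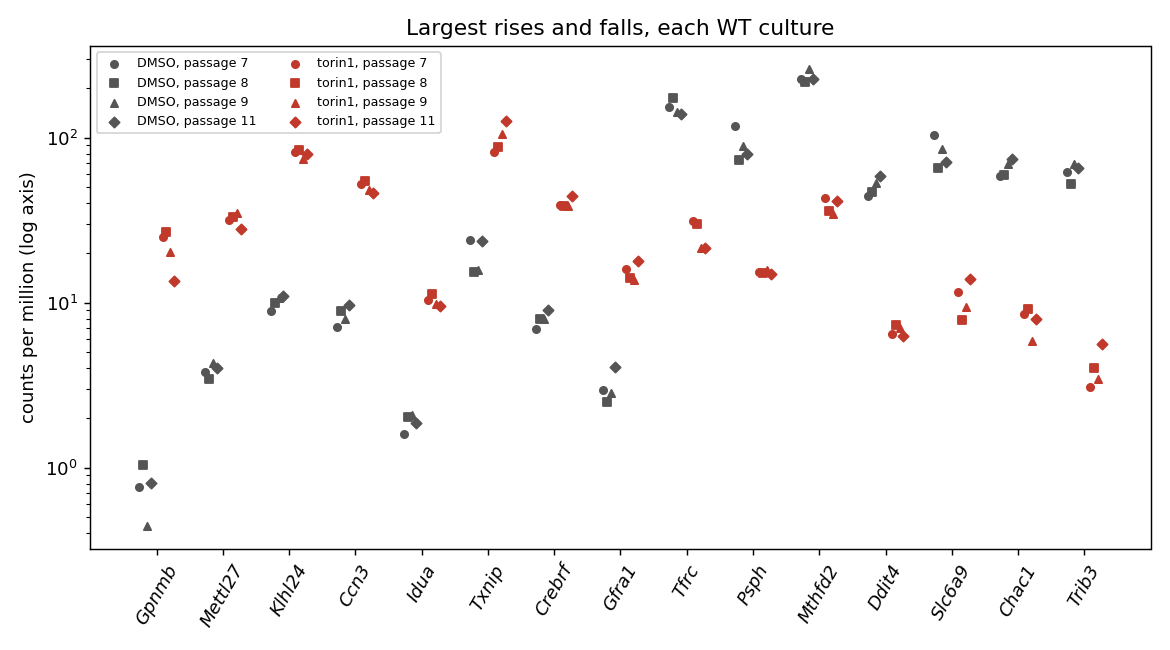
CPM on a log axis of the 8 largest rises (left) and of the largest falls named in the text (right) in each of the 8 WT libraries, grey for DMSO and red for torin1, with 1 marker shape per passage. The 4 torin1 points of each gene lie apart from its 4 DMSO points, as the choice of these genes required.

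Targets of ATF4, which supply cells with amino acids, had the lowest median of the 32 gene lists examined. Of the 46 ATF4 targets tested, 43 were downregulated and 1 was upregulated, with a median log2 fold change of -1.54 against 0.05 over all genes. *Atf4* itself, the transcription factor translated under MTORC1 and under amino acid shortage, fell 2.72-fold, from 513 ± 29.8 to 189 ± 9.97 CPM (SD, n = 4). *Slc7a11*, the cystine and glutamate exchanger, was counted at 26.5, 16.3, 21.1 and 17.4 CPM in the DMSO and 0.690, 0.394, 0.349 and 1.08 CPM in the torin1 cultures, which was close to nothing in each torin1 culture, and fell 32.03-fold (log2 fold change -5.00, SE 0.48, adjusted p = 5.32e-09). *Asns*, asparagine synthetase, was counted at 501, 344, 425 and 352 CPM in the DMSO and 129, 106, 119 and 128 CPM in the torin1 cultures and fell 3.38-fold (log2 fold change -1.76, SE 0.15, adjusted p = 1.19e-09). *Atf3*, a transcription factor of the stress response, fell 4.04-fold, from 8.44 ± 1.70 to 2.09 ± 0.524 CPM (SD, n = 4). *Fgf21*, a secreted stress hormone, was at 0 in all 4 torin1 libraries against a mean of 0.426 CPM with DMSO, at least 3.97-fold lower by a floor of 3 counts per library. All 9 amino acid transporters examined fell, by log2 fold changes from -5.00 to -0.89, among them *Slc7a5* (-1.90) and *Slc3a2* (-1.12), the 2 chains of a transporter of leucine. This grouping of transporters was made after the values were seen. The exceptions in the list were *Ppp1r15a* (GADD34), a phosphatase subunit that ends the stress response and which rose 1.24-fold, and *Ddit3* (CHOP), at 14.6 ± 2.19 CPM in DMSO and 18.8 ± 4.61 CPM in torin1 cultures (SD, n = 4, adjusted p = 0.121), whose groups overlapped, and *Fam129a* (log2 fold change 0.16, adjusted p = 0.445).

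ATF4 binds the amino acid response element together with C/EBP partners. The letters TGATGNAA were searched on both strands of windows from 250 bases before to 50 bases after the start (RefSeq, GRCm38.p6), where that start lay within 100 bases of the start of the gene's most abundant transcript, which held for 8139 of the tested genes. They were present in 11 of 30 windows of ATF4 targets (36.7%), in 4 of 12 of aminoacyl-tRNA synthetases (33.3%) and in 160 of all 8139 (1.97%). Stretches around matches are shown for described genes of these lists that held them before the start, since these genes include some of the largest falls. Each reads 5′ to 3′ along the gene's strand with the match in capitals.
Asns (chr6:7693210-7693252, minus strand): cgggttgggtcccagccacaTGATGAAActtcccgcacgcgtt
Chac1 (chr2:119351029-119351076, plus strand): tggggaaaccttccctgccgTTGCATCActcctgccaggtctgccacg
Slc7a11 (chr3:50443633-50443699, minus strand): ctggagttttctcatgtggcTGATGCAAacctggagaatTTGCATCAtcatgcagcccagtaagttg
Atf3 (chr1:191183416-191183463, minus strand): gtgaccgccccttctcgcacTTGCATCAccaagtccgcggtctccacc
Aars (chr8:111033710-111033757, plus strand): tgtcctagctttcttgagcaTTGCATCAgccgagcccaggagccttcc
The match in *Asns* lies 23 to 16 bases before the start, those in *Slc7a11* between 66 and 40 bases before it, and the matches of *Chac1*, *Slc7a11*, *Atf3* and *Aars* include the reverse complement of the letters searched. A match is a description of the sequence, and binding was not measured here.

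The mRNAs for making serine, one-carbon units and charged tRNAs were lower too. Of the 15 serine and one-carbon genes, 11 were downregulated and 1 was upregulated (median log2 fold change -0.90). The enzymes that make serine from a glycolytic intermediate fell at each step, *Phgdh* 1.96-fold (from 491 ± 41.8 to 250.01 ± 3.66 CPM), *Psat1* 3.76-fold (from 920.3 ± 113 to 245 ± 14.8 CPM) and *Psph* 5.91-fold (from 90.4 ± 19.9 to 15.3 ± 0.308 CPM, SD, n = 4). *Mthfd2*, the mitochondrial enzyme of the folate cycle, was counted at 228, 217, 262 and 227 CPM in the DMSO and 42.9, 36.0, 34.6 and 41.2 CPM in the torin1 cultures and fell 6.02-fold (log2 fold change -2.59, SE 0.11, adjusted p = 1.65e-14), with no overlap. *Mtr*, methionine synthase, was the member that rose (1.24-fold). Of the 20 cytosolic aminoacyl-tRNA synthetases, 15 were downregulated and 1 was upregulated (median -0.77). *Yars* fell 3.16-fold, *Cars* 2.82-fold and *Aars* 2.53-fold, and *Qars*, the glutaminyl-tRNA synthetase, rose 1.25-fold. The lists of ATF4 targets and synthetases share 6 genes, and of the other 14 synthetases 9 were downregulated (median -0.55). The ATF4 and serine lists share 6 genes as well, and of the other 9 serine and one-carbon genes 5 were downregulated (median -0.28).

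Sterol and fatty acid synthesis are the paths driven by the SREBPs. Of the 24 genes of sterol synthesis and uptake, 21 were downregulated and none was upregulated (median -0.80), and the 3 others, *Sc5d* (-0.22), *Fdft1* (-0.21) and *Ebp* (-0.15), had log2 fold changes below 0 as well. *Sqle*, squalene epoxidase, was counted at 72.3, 96.8, 93.1 and 106 CPM in the DMSO and 28.5, 27.9, 29.9 and 28.6 CPM in the torin1 cultures and fell 3.21-fold (log2 fold change -1.68, SE 0.13, adjusted p = 2.60e-10). The DMSO values of *Sqle* spread more than its torin1 values, without overlap between the groups. *Msmo1* fell 4.45-fold and *Idi1* 3.77-fold, and *Hmgcs1*, an early enzyme of the path, fell 2.28-fold (from 70.6 ± 13.1 to 30.9 ± 2.26 CPM, SD, n = 4). Of the 2 SREBP genes, *Srebf2*, which drives sterol genes, fell 1.76-fold (from 425 ± 40.7 to 242 ± 12.4 CPM, SD, n = 4), and *Srebf1*, which drives fatty acid genes, was counted at 146 ± 9.43 CPM in DMSO and 146 ± 5.26 CPM in torin1 cultures (SD, n = 4, adjusted p = 0.968). *Insig1*, which retains SREBPs in the endoplasmic reticulum, fell 1.69-fold.

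Of the 17 genes of fatty acid synthesis, 10 were downregulated and none was upregulated (median -0.39). *Fasn*, fatty acid synthase, fell 1.89-fold (from 632 ± 43.3 to 335 ± 38.7 CPM, SD, n = 4), *Acaca*, which makes its substrate, 1.96-fold, and *Elovl6*, an elongase, 3.31-fold. The 2 stearoyl-CoA desaturases differed from each other. *Scd2* was counted at 585, 883, 915 and 1011 CPM in the DMSO and 168, 200.3, 210.3 and 249 CPM in the torin1 cultures and fell 4.10-fold (log2 fold change -2.03, SE 0.27, adjusted p = 1.06e-06). *Scd1* was counted at 155, 183, 194 and 229 CPM in the DMSO and 166, 184, 179 and 197 CPM in the torin1 cultures, and its groups overlapped (adjusted p = 0.687). The sterol element searched as TCACNCCAC on both strands was present in 1 of 13 windows of the sterol list (7.69%) and in 88 of all 8139 (1.08%). That window was the one of *Hmgcs1*, shown with the match in capitals because it is the classical SREBP target of the list.
Hmgcs1 (chr13:119690194-119690242, plus strand): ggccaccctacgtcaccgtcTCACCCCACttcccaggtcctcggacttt

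Most mRNAs for the assembly of ribosomes fell, while few of those for the ribosomal proteins reached the FC of 1.2. Of 82 genes of ribosome biogenesis, 50 were downregulated and 1, *Polr1c*, was upregulated (median -0.33). *Bysl* fell 2.12-fold (from 101 ± 1.11 to 47.5 ± 2.30 CPM, SD, n = 4) and *Rrp12* 1.93-fold, both of which mature the small subunit, and *Rrs1*, which matures the large one, fell 1.93-fold. *Fbl*, the methyltransferase of ribosomal RNA, fell 1.39-fold, *Nop56*, its partner, 1.33-fold, and *Polr1b*, a subunit of RNA polymerase I, 1.23-fold. *Ubtf*, the factor that loads that polymerase, had a log2 fold change of -0.19 and did not reach the FC of 1.2. Of 79 cytosolic ribosomal protein genes, 29 were under the FDR of 0.05, but only 4 were upregulated and 1 was downregulated with an FC of 1.2 or more, with a median of 0.04 close to the 0.05 of all genes, which was -0.0013 without the torin1 library of passage 7. *Rps6* was counted at 1213, 1211, 1185 and 1165 CPM in the DMSO and 1209, 1225, 1217 and 1147 CPM in the torin1 cultures, and its groups overlapped (log2 fold change 0.01, SE 0.03). The exceptions upward included *Rpl10a* (1.48-fold) and *Rpl3* (1.42-fold), and the one downward was *Rpl27* (1.29-fold). Many ribosomal protein genes have near-identical pseudogenes with which salmon may share reads, so single members are uncertain. As a share of all mRNA per length (TPM), ribosomal proteins took 17.2% ± 0.368 with DMSO and 19.1% ± 0.547 with torin1 (SD, n = 4).

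Among 41 translation factors, 17 were downregulated and 4 were upregulated (median -0.14), shares of 41.5% and 9.76% against 20.5% and 26.6% over all genes. Those that fell included *Eif4e*, the cap-binding protein (1.84-fold), *Eif5a* (1.78-fold) and *Eif2s2* (1.75-fold), and those that rose were *Eif4b* (1.63-fold, from 895 ± 22.96 to 1463 ± 125 CPM, SD, n = 4), *Eif4a2* (1.46-fold), *Eif3a* (1.35-fold) and *Eef2* (1.28-fold), the elongation factor that moves the ribosome. With library size alone or upper-quartile scaling, 9 of the 41 were downregulated and 5 upregulated. A run of pyrimidines at the start (a C followed by at least 5 C or T within 10 bases of the start), the mark of mRNAs whose translation MTORC1 controls, was present in 24 of 49 windows of ribosomal proteins (49.0%), 9 of 24 of translation factors (37.5%) and 1588 of all 8139 (19.5%), and in 21.2% of upregulated and 16.5% of downregulated genes. Of 21 genes of purine and pyrimidine synthesis, 9 were downregulated and 2 were upregulated (median -0.19), shares of 42.9% and 9.52% against 20.5% and 26.6% over all genes. *Ppat*, the first step of purine synthesis, fell 1.57-fold, *Impdh1* 1.56-fold, the salvage enzyme *Hprt* 1.70-fold and *Cad*, which starts pyrimidine synthesis, 1.23-fold. *Paics*, a later purine step, rose 1.33-fold. *Myc*, which drives many of these genes, was counted at 144, 127, 109.9 and 138 CPM in the DMSO and 169.8, 132, 127 and 151 CPM in the torin1 cultures, and its groups overlapped (log2 fold change 0.16, adjusted p = 0.309).

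**Figure D3:**
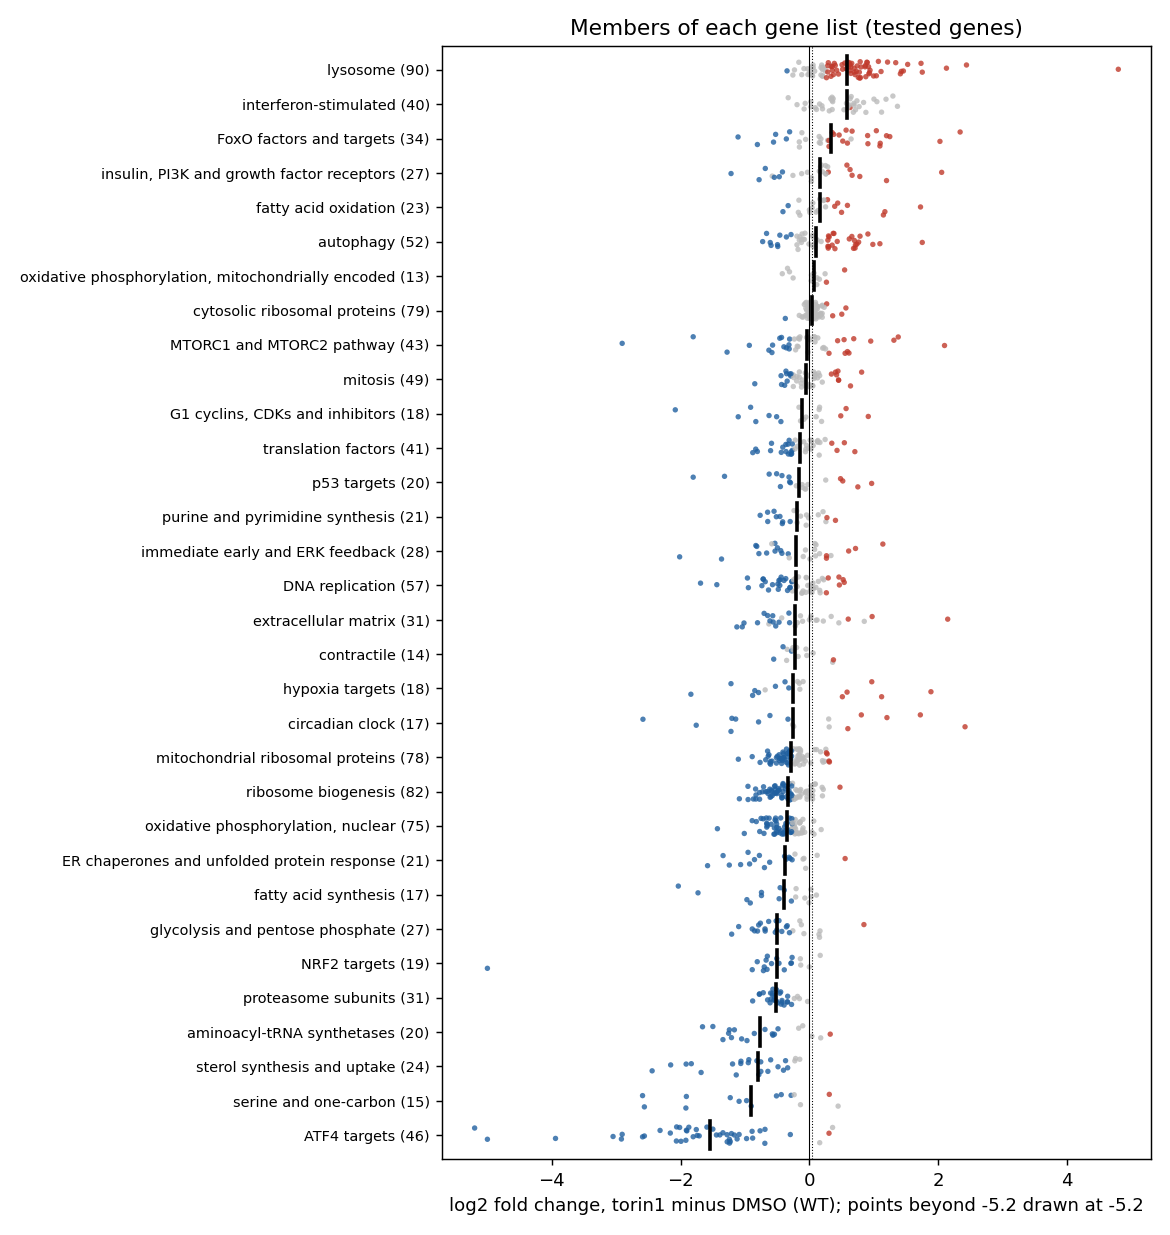
Log2 fold change of torin1 against DMSO in WT MEFs for every tested member of 32 gene lists, ordered by the list median (black bar), with the number of tested members in brackets, red for upregulated, blue for downregulated and grey for genes not called. The solid line marks no change and the dotted line the median of all genes (0.05). ATF4 targets have the lowest median (-1.54) and the lysosome list the highest (0.59), and the point drawn at the left edge is *Fgf21*, which was at 0 in the torin1 libraries.

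Nuclear genes of mitochondria and genes of glycolysis were mostly lower, by smaller folds than the ATF4 targets. Of 75 nuclear-encoded subunits and carriers of oxidative phosphorylation, 46 were downregulated and none was upregulated (median -0.34). The falls covered 23 of 36 subunits of complex I, 11 of 15 of ATP synthase and 3 of 10 of cytochrome oxidase, groups that were set after the values were seen. The 3 of 10 is near the share downregulated over all genes (20.5%). *Cycs*, cytochrome c, was counted at 134, 139, 147 and 146 CPM in the DMSO and 59.6, 50.8, 47.1 and 53.2 CPM in the torin1 cultures and fell 2.69-fold (log2 fold change -1.43, SE 0.06, adjusted p = 2.35e-14). *Uqcrq*, of complex III, fell 2.01-fold and *Atp5g1*, of the rotor of ATP synthase, 1.85-fold. Of the 13 mRNAs encoded in mitochondria, 2 were upregulated and none was downregulated (median 0.07), and none of the 13 had groups that did not overlap. Over all genes, 26.6% were upregulated and 20.5% downregulated. Their mean log2 level in the DMSO culture of passage 11 was -0.54 relative to the DMSO mean, below the 0.13 to 0.25 of the other 3 cultures. Without that culture, 1 of these mRNAs was upregulated and 3 were downregulated. The median difference over them was 0.28, -0.09, -0.10 and 0.31 log2 at passages 7, 8, 9 and 11, so a direction was not settled. Of 78 mitochondrial ribosomal proteins, 41 were downregulated and 4 were upregulated (median -0.28), with *Mrpl20* (2.15-fold) and *Mrps6* (1.85-fold) among the largest falls.

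Of 27 genes of glycolysis and the pentose phosphate path, 18 were downregulated and 1 was upregulated (median -0.50). *Ldha*, lactate dehydrogenase, was counted at 713, 738, 731 and 808 CPM in the DMSO and 359.6, 340.3, 334 and 365 CPM in the torin1 cultures and fell 2.14-fold (log2 fold change -1.10, SE 0.06, adjusted p = 1.15e-12). *Pgam1* fell 2.31-fold, *Hk2*, the inducible hexokinase, 1.80-fold, and *G6pdx*, the first step of the pentose phosphate path, 1.85-fold. The member that rose was *Eno2*, an enolase, by 1.80-fold. Of the 18 hypoxia targets tested, 8 were downregulated and 5 were upregulated, shares of 44.4% and 27.8% against 20.5% and 26.6% over all genes. *Vegfa*, the endothelial growth factor, fell 1.44-fold and *Higd1a*, a mitochondrial protein, 2.32-fold, while *Ndrg1* rose 1.96-fold and *Pdk1* 2.18-fold. Of 23 genes of fatty acid oxidation, 8 were upregulated and 2 were downregulated (median 0.16). These are shares of 34.8% and 8.7% against 26.6% and 20.5% over all genes. *Cpt1a*, the gate of fatty acids into mitochondria, was counted at 29.2, 27.4, 31.8 and 32.9 CPM in the DMSO and 98.3, 105, 97.1 and 101 CPM in the torin1 cultures and rose 3.32-fold (log2 fold change 1.73, SE 0.06, adjusted p = 1.31e-15). *Cpt2* rose 1.42-fold and *Acadl* 1.36-fold.

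Most genes of the proteasome, of protein folding and of the redox factor NRF2 were downregulated as well. Of 31 proteasome subunits, 27 were downregulated and none was upregulated (median -0.51), and all 31 log2 fold changes were below 0. *Psmd7* was counted at 250.4, 244, 249 and 263 CPM in the DMSO and 137, 134, 135 and 141 CPM in the torin1 cultures and fell 1.84-fold (log2 fold change -0.88, SE 0.03, adjusted p = 4.14e-15), and *Psmc4* fell 1.71-fold. Of 21 chaperones and unfolded protein response genes of the endoplasmic reticulum, 15 were downregulated and 1 was upregulated (median -0.38). *Hspa5* (BiP), the main chaperone, fell 2.37-fold, from 789 ± 54.9 to 334 ± 31.6 CPM (SD, n = 4), *Herpud1* fell 2.99-fold and *Xbp1* 2.53-fold, and *Dnajb9* rose 1.47-fold. Of 19 NRF2 targets, 15 were downregulated and none was upregulated (median -0.51), among them *Nqo1* (1.75-fold), *Txnrd1* (1.64-fold), *G6pdx* and *Slc7a11*. Of 20 p53 targets, 9 were downregulated and 4 were upregulated, shares of 45% and 20% against 20.5% and 26.6% over all genes. *Aen*, a nuclease, fell 2.49-fold and *Sesn2*, a sensor of leucine that is also an ATF4 target, 3.49-fold, while *Pmaip1* (NOXA), which promotes apoptosis, rose 1.96-fold.

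Cell cycle genes were taken in 3 lists. Several cyclins and factors of entry into S phase fell, with *Ccnd2*, a D-type cyclin, counted at 161, 150.2, 152 and 152 CPM in the DMSO and 34.9, 36.2, 32.8 and 41.5 CPM in the torin1 cultures and falling 4.23-fold (log2 fold change -2.08, SE 0.07, adjusted p = 8.53e-16). *Ccnd1* fell 2.15-fold, from 268 ± 18.8 to 125 ± 14.1 CPM (SD, n = 4), *Ccne1*, the cyclin of the start of S phase, 2.71-fold, *E2f2* 3.23-fold and *Skp2*, which removes the inhibitor p27, 1.88-fold. Of 18 G1 cyclins, kinases and inhibitors, 7 were downregulated and 3 were upregulated, shares of 38.9% and 16.7% against 20.5% and 26.6% over all genes. The 3 that rose were *Rb1* (1.89-fold), *Rbl2* (1.49-fold) and *Cdkn1c* (1.40-fold), each a brake on the cycle. *Cdkn1b*, which encodes p27, had a log2 fold change of 0.15 and did not reach the FC of 1.2. Of 57 DNA replication genes, 23 were downregulated and 6 were upregulated (median -0.21), shares of 40.4% and 10.5% against 20.5% and 26.6% over all genes. *Rrm2*, the ribonucleotide reductase subunit that limits nucleotide supply, was counted at 195, 199, 198 and 183 CPM in the DMSO and 101.9, 105, 96.7 and 94.8 CPM in the torin1 cultures and fell 1.95-fold. In contrast, *Cdt1*, which loads the replicative helicase, rose 1.46-fold, and the polymerase subunits *Pold1* and *Pole* rose 1.44-fold and 1.38-fold. Of the 6 MCM helicase subunits, a group set after the values were seen, 1 was upregulated and none was downregulated, and *Mcm5* was at 474 ± 10.8 CPM in DMSO and 437 ± 9.36 CPM in torin1 cultures (SD, n = 4).

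Of 49 mitosis genes, 10 were downregulated and 8 were upregulated (median -0.04), shares of 20.4% and 16.3% against 20.5% and 26.6% over all genes. The sign of this median turned with the scaling, to 0.05 with library size alone. *Mki67*, the proliferation marker, was counted at 514, 563, 530.3 and 439 CPM in the DMSO and 524, 542, 565 and 488 CPM in the torin1 cultures, and its groups overlapped (log2 fold change 0.05, SE 0.07, adjusted p = 0.557). *Mybl2*, a factor of the late cycle, fell 1.80-fold, *Aurkb*, a mitotic kinase, 1.35-fold and *Ccnb1*, the mitotic cyclin, 1.22-fold. *Ndc80*, of the outer kinetochore, rose 1.76-fold and the kinetochore motor *Cenpe* 1.56-fold. The E2F letters TTTCCCGC or TTTGGCGC were present in 11 of 36 windows of replication genes (30.6%) and in 251 of all 8139 (3.08%), and the cell cycle homology letters TTTGAA in 25 of 35 of mitosis genes (71.4%) and in 945 of all (11.6%). Those shares describe the lists, whose members were split between rises and falls.

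**Figure D4:**
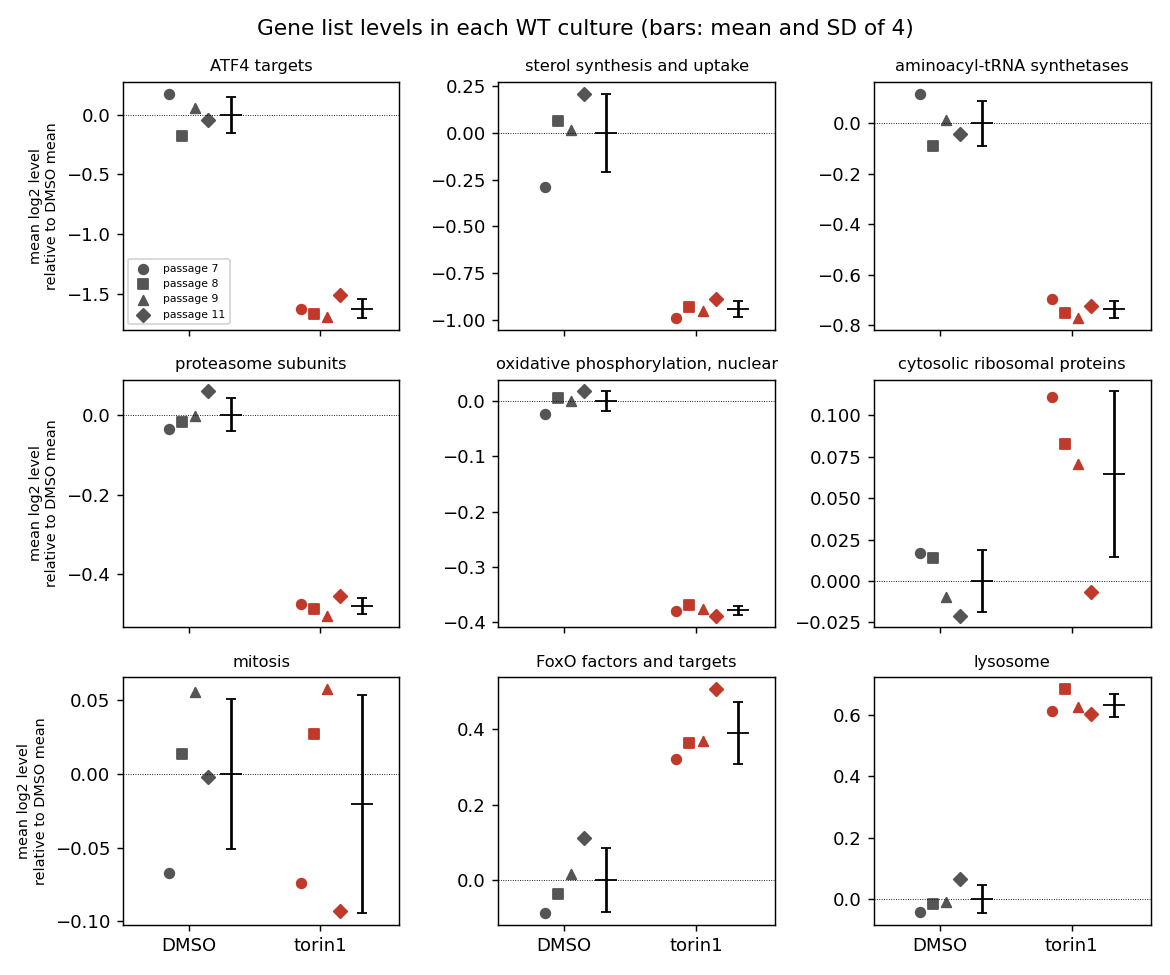
Mean log2 level of the members of 9 gene lists in each of the 8 WT libraries (y axis, relative to the mean of the 4 DMSO libraries), with 1 marker shape per passage and with the mean and SD of the 4 cultures beside each group. ATF4 targets lie at -1.70 to -1.52 with torin1 and lysosomal genes at 0.60 to 0.69, apart from their DMSO values, while the groups overlap for mitosis and for cytosolic ribosomal proteins.

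*Foxo1*, *Foxo3* and many of the FoxO targets rose. Of 34 FoxO factors and targets tested, 18 were upregulated and 6 were downregulated (median 0.33). These are shares of 52.9% and 17.6% against 26.6% and 20.5% over all genes. *Foxo3* was counted at 41.3, 46.6, 44.4 and 48.7 CPM in the DMSO and 92.0, 96.6, 98.4 and 101.6 CPM in the torin1 cultures and rose 2.15-fold (log2 fold change 1.10, SE 0.08, adjusted p = 7.03e-11), and *Foxo1* rose 1.88-fold, from 17.9 ± 1.72 to 33.5 ± 2.64 CPM (SD, n = 4). *Fbxo32* (atrogin-1), a ubiquitin ligase subunit of muscle wasting, was counted at 6.98, 7.47, 7.46 and 8.25 CPM in the DMSO and 32.8, 31.3, 28.4 and 30.9 CPM in the torin1 cultures and rose 4.09-fold (log2 fold change 2.03, SE 0.09, adjusted p = 4.07e-14). *Ccng2*, an unusual cyclin of resting cells, rose 2.38-fold. The members that fell included *Bcl6*, a repressor (2.15-fold, from 6.91 ± 0.453 to 3.20 ± 0.323 CPM, SD, n = 4), *Gadd45a* (1.75-fold), *Sod2*, the mitochondrial superoxide dismutase (1.47-fold) and *Sesn1* (1.24-fold). *Sesn3*, at 36.3 ± 2.59 CPM in DMSO and 32.7 ± 4.81 CPM in torin1 cultures (SD, n = 4), did not pass the test (adjusted p = 0.163). The forkhead letters GTAAACA were present in 2 of 22 windows of this list (9.09%) and in 185 of all 8139 (2.27%). The stretch of *Txnip* is shown because it had the largest rise of the list.
Txnip (chr3:96557816-96557862, plus strand): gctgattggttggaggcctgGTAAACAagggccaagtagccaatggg

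Among 27 genes of insulin and growth factor signalling, 7 rose and 6 fell (median 0.17), shares of 25.9% and 22.2% close to the 26.6% and 20.5% over all genes. *Irs2*, the insulin receptor substrate, was counted at 48.7, 42.5, 46.0 and 45.4 CPM in the DMSO and 113, 103, 101 and 103 CPM in the torin1 cultures and rose 2.30-fold (log2 fold change 1.2, SE 0.07, adjusted p = 2.66e-12), and *Insr*, the receptor, rose 1.59-fold, from 51.3 ± 2.09 to 81.3 ± 3.19 CPM (SD, n = 4). *Pdgfra*, a receptor of platelet-derived growth factor and a fibroblast marker, was counted at 5.90, 5.002, 4.60 and 4.85 CPM in the DMSO and 29.7, 20.6, 18.9 and 15.8 CPM in the torin1 cultures and rose 4.16-fold. Downstream, *Akt1* fell 1.72-fold, from 406 ± 9.27 to 237 ± 5.16 CPM (SD, n = 4), and the regulatory subunits of PI3K *Pik3r1* and *Pik3r3* fell 1.61-fold and 2.32-fold. *Igf2r*, which carries enzymes to lysosomes and clears the growth factor IGF2, rose 1.72-fold.

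Of 43 genes of the MTOR pathway itself, 11 were upregulated and 14 were downregulated, shares of 25.6% and 32.6% against 26.6% and 20.5% over all genes. This list shares 3 genes with the ATF4 targets, and of the other 40 genes 11 were upregulated and 11 downregulated (median -0.02). *Mtor* had a log2 fold change of 0.08 (adjusted p = 0.0583) and was counted at 72.3 ± 1.16 CPM in DMSO and 76.2 ± 3.08 CPM in torin1 cultures (SD, n = 4). Those that fell included *Ddit4* (above), *Sesn2* and *Eif4ebp1*, the repressor of cap-dependent translation (2.42-fold, from 236 ± 29.4 to 97.2 ± 5.79 CPM, SD, n = 4). Those that rose included genes that act at the lysosome, with *Fnip1* at 23.2, 23.4, 24.7 and 23.2 CPM in the DMSO and 59.9, 63.1, 56.1 and 56.3 CPM in the torin1 cultures and up 2.49-fold (log2 fold change 1.32, SE 0.04, adjusted p = 1.40e-16). *Flcn*, the partner of FNIP1 in the complex that acts on RRAGC and RRAGD, rose 1.94-fold, and *Rragd*, one of these GTPases, rose 4.29-fold from a low level (1.39 ± 0.318 to 6.04 ± 1.11 CPM, SD, n = 4). *Tsc1*, of the complex that switches MTORC1 off, rose 1.62-fold. *Tfeb* and *Tfe3* themselves fell 1.48-fold (from 22.9 ± 1.74 to 15.5 ± 0.989 CPM) and 1.49-fold (from 120.2 ± 1.17 to 80.5 ± 3.26 CPM, SD, n = 4).

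Of 90 lysosomal genes tested, 63 were upregulated and 1, *Gga3*, an adaptor of transport from the Golgi, was downregulated (median 0.59). Hydrolases were among the largest rises. *Dpp7*, a dipeptidase, was counted at 18.7, 19.1, 20.6 and 21.6 CPM in the DMSO and 89.96, 96.2, 89.2 and 75.5 CPM in the torin1 cultures and rose 4.38-fold (log2 fold change 2.13, SE 0.09, adjusted p = 7.68e-15). *Hexa* rose 1.84-fold, from 47.0 ± 3.07 to 86.5 ± 4.34 CPM (SD, n = 4), and *Ctsd*, cathepsin D, 1.43-fold. Of 9 cathepsins tested 6 rose, and of 15 subunits and accessory proteins of the proton pump (V-ATPase) 8 rose, both groups set after the values were seen. Over all genes, 26.6% were upregulated. *Lamp1*, the main membrane glycoprotein, was counted at 561, 553, 566 and 608 CPM in the DMSO and 890.4, 907, 843 and 831 CPM in the torin1 cultures and rose 1.52-fold (log2 fold change 0.60, SE 0.04, adjusted p = 3.37e-11), with no overlap. *Atp6v1h*, of the proton pump, was at 35.7 ± 1.38 CPM in DMSO and 41.1 ± 2.67 CPM in torin1 cultures (SD, n = 4) and did not reach the FC of 1.2. As a background, TFEB and TFE3 bind the CLEAR element, here TCACGTGA, which contains the E-box CACGTG that MYC and USF factors bind too. The CLEAR letters were present in 13 of 59 windows of lysosomal genes (22%), in 176 of all 8139 (2.16%), in 3.40% of upregulated and in 1.2% of downregulated genes, and the E-box in 21 of 59 (35.6%) and in 855 of all (10.5%). The stretches below are examples from described genes with a match before the start, with CLEAR elements in capitals for the first 3 and E-boxes for the last 2. They were taken only from called genes of the lysosome and MTOR pathway lists and, for the CLEAR element, of the largest rises and falls. Described genes of other lists were not looked at for this, and may hold matches too.
Crebrf (chr17:26715504-26715551, plus strand): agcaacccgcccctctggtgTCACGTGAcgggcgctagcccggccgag
Dpp7 (chr2:25356379-25356426, minus strand): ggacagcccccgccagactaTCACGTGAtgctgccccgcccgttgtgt
Igf2r (chr17:12769707-12769775, minus strand): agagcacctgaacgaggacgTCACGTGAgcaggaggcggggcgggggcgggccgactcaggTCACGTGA
Lamp1 (chr8:13159080-13159160, plus strand): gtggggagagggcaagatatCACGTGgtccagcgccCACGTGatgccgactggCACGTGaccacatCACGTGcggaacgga
Fnip1 (chr11:54438084-54438129, plus strand): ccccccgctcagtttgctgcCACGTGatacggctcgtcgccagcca
*Lamp1* held 4 E-boxes between 61 and 10 bases before the start, and *Igf2r* 2 CLEAR elements.

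Of 52 autophagy genes, 24 were upregulated and 9 were downregulated (median 0.11). These are shares of 46.2% and 17.3% against 26.6% and 20.5% over all genes. Cargo receptors were among those that rose, with *Calcoco1*, a receptor for the endoplasmic reticulum, counted at 69.0, 63.6, 64.6 and 70.0 CPM in the DMSO and 224, 223, 233 and 224 CPM in the torin1 cultures and up 3.38-fold (log2 fold change 1.76, SE 0.05, adjusted p = 3.22e-17). *Sqstm1* (p62) rose 1.98-fold, from 296 ± 27.4 to 588 ± 20.9 CPM (SD, n = 4), *Map1lc3b*, which coats autophagosomes, 1.88-fold and *Atg14*, of the lipid kinase that starts them, 2.14-fold. Those that fell included parts of the conjugation machinery, *Atg5* by 1.58-fold and the proteases *Atg4a* and *Atg4d* by 1.65-fold and 1.52-fold.

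Genes of the matrix, of contraction, of ERK signalling and of the clock were also counted. Of 31 extracellular matrix genes, 13 were downregulated and 3 were upregulated (median -0.22). *Col1a1*, the main collagen, was counted at 1811, 1982, 2392 and 3343 CPM in the DMSO and 754, 895, 1113 and 1609 CPM in the torin1 cultures and fell 2.18-fold (log2 fold change -1.12, SE 0.21, adjusted p = 7.73e-05). Its groups did not overlap, and passage 11 had the highest value in each. *Col5a1* fell 2.06-fold, while *Fn1*, fibronectin, rose 1.52-fold, from 2056 ± 113 to 3130.1 ± 316 CPM (SD, n = 4). Of 14 contractile genes, 3 fell, a share of 21.4% close to the 20.5% over all genes, and 1, *Myh9*, rose (1.30-fold). Of 28 immediate early genes and feedback regulators of ERK, 12 were downregulated and 5 were upregulated (42.9% and 17.9%). *Egr1* fell 1.58-fold and *Fosl1* 1.78-fold, and *Spred3* rose 1.53-fold. Of 17 clock genes, 8 were downregulated and 5 were upregulated (47.1% and 29.4%). Over all genes, 20.5% were downregulated and 26.6% upregulated. *Arntl* (BMAL1), the activator of the clock, was counted at 20.6, 20.8, 20.4 and 17.6 CPM in the DMSO and 5.55, 6.48, 5.97 and 5.48 CPM in the torin1 cultures and fell 3.38-fold (log2 fold change -1.76, SE 0.16, adjusted p = 1.66e-09). *Per2*, a repressor, fell 2.32-fold, and *Nr1d2*, which represses *Arntl*, rose 1.75-fold.

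The interferon-stimulated genes, which cells switch on in defence against viruses, differed more between passages than between treatments. The 40 tested members summed to 542, 499, 874 and 4504 CPM in the DMSO and 707, 726, 1380 and 5746 CPM in the torin1 cultures. The cultures of passage 11 stood far above the others with either treatment, and the groups overlapped. At each passage the torin1 culture was the higher one, and the median difference over the members was 0.67, 0.89, 0.89 and 0.47 log2 at passages 7, 8, 9 and 11. The fit without passage called 1 of the 40 upregulated and none downregulated, with a list median of 0.58. With passage as a block, 30 were upregulated (28.5% of all genes were in that fit) and 1, *Isg15*, named after its value was seen, was downregulated (21.2% of all genes). Leaving out the DMSO culture of passage 11 alone called 27 upregulated. That fit kept the torin1 culture of passage 11, so passage and treatment cannot be told apart in it. Leaving out both cultures of passage 11 called 3. *Ifit2*, the member that the fit without passage called, was counted at 27.1, 28.3, 28.6 and 39.8 CPM in the DMSO and 43.0, 41.8, 41.0 and 66.6 CPM in the torin1 cultures and rose 1.55-fold (log2 fold change 0.64, SE 0.18, adjusted p = 0.00484), without overlap between the groups. The lists' counts with passage as a block were computed after the data were seen.

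The same contrast in *tfeb tfe3* DKO MEFs, which has its own DMSO libraries, served to show where the WT response differed. *Tfeb* mRNA was at 1.34 to 2.65 CPM in the 8 DKO libraries with DMSO or torin1 and at 14 to 24.96 CPM in the 8 WT ones, while *Tfe3* mRNA was at 89.4 to 126 CPM in DKO and 77.4 to 122 CPM in WT, so that the loss of TFE3 rests on the stated genotype. The response (log2 fold change in DKO minus that in WT) was lower for 975 genes (6.33%) and higher for 721 (4.68%), by the same FC and FDR thresholds. In the lysosome list it was lower for 65 of 90 genes and higher for none, and the list median was -0.00 in DKO against 0.59 in WT. In the ATF4 list it was lower for 3 and higher for 3 of 46, with a median of -1.5 in DKO against -1.54 in WT, and in the sterol list for none in either direction (medians -0.79 and -0.80). Of 34 FoxO factors and targets, 4 had a lower and 6 a higher response. *Gpnmb* rose by a log2 fold change of 0.82 in DKO against 4.80 in WT (adjusted p of the difference 4.22e-07), and *Fnip1* and *Flcn* had -0.09 and -0.60 in DKO against 1.32 and 0.96 in WT (adjusted p of the difference 2.18e-13 and 9.67e-11). For *Klhl24* (2.69 in DKO, 2.98 in WT) and *Trib3* (-4.12 and -3.94) a difference was not detected (adjusted p = 0.150 and 0.834), and *Calcoco1* rose by more in DKO (2.06 against 1.76, adjusted p of the difference 0.00343).

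**Figure D5:**
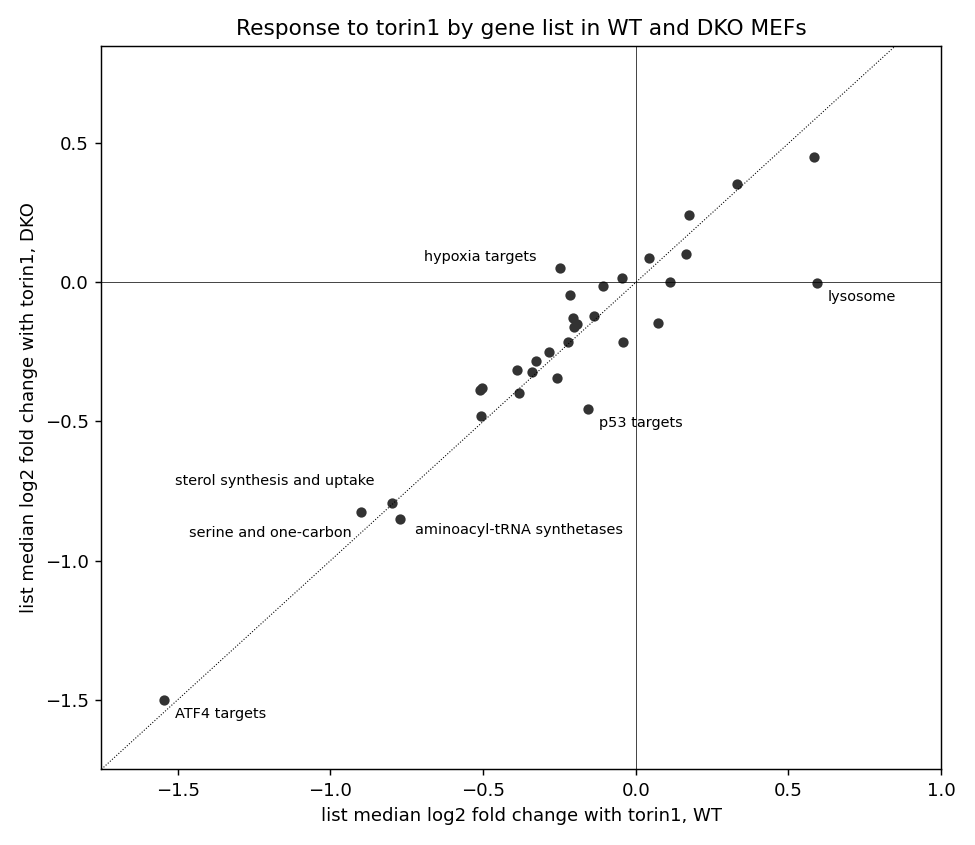
Median log2 fold change with torin1 of each of 32 gene lists in WT (x axis) and in *tfeb tfe3* DKO MEFs (y axis), 1 point per list, each genotype against its own 4 DMSO libraries. The dotted line marks equal medians. Lists of ATF4 targets, sterol synthesis, serine and one-carbon metabolism and aminoacyl-tRNA synthetases lie near it, and the lysosome list lies below it.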

How the data were processed

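Libraries of polyadenylated RNA of MEFs were processed by the authors with nf-core/rnaseq 3.11.2 (STAR, salmon, unique molecular identifiers) on GRCm38 with Ensembl release 102. The deposited values used here are the authors' estimated counts per gene, not scaled for library size or length, and the authors' TPM per transcript, which were summed per gene and entered no test. Their methods name a batch removal with limma that is not specified further. The labels give a single batch, so none was removed here.

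Estimated counts were rounded to whole numbers. Of 55487 genes, 15401 passed edgeR's filterByExpr (minimum count 10). A model with 1 mean for each of the 6 groups of the series was fitted to its 24 libraries in edgeR 4.0.16 and R 4.3.3 (quasi-likelihood test in the form of earlier edgeR versions, TMM scaling, 18 residual degrees of freedom, biological coefficient of variation 10.7%). A gene was called when its FC reached 1.2 and its p, adjusted by Benjamini-Hochberg over all tested genes, was under 0.05. Replicates differed by more than sampling noise (chi-square per degree of freedom 4.53 to 40.5), so each counted as 1 sample.

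The comparison, gene lists and gene groups were chosen with earlier results of these data known, and the 32 lists carry counts and medians and no test. Named genes were the 8 largest rises and falls among called genes of at least 2 log2 CPM without overlap between the groups (predicted genes and RIKEN clones left out), in each list up to 3 in each direction under the same conditions, members called against a list's direction where 3 or fewer, a fixed list of regulators and enzymes, and cell type markers. *Fgf21*, *Rragd* and any other gene outside that rule were named after their values were seen. Some genes that met the rule are not reported here. The fit was also run on simulated counts with far fewer changed genes and no passage effect, so that run does not measure errors in these data. Alternatives were other filters, scalings and thresholds, limma 3.58.1 (voom), DESeq2 1.42.0, blocks for replicate number or passage, an offset for transcript length, the 8 WT libraries alone, and libraries left out.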

Additional observations from a re-analysis of the deposited data

Results flagged for a closer look

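In each group of 4 libraries, the value farthest from the others was examined by its gap to the nearest one over the range of the group, for the 32 lists, the fixed regulators and enzymes and the 16 largest changes. Of 196 such sets of 4 values, 4 held a value that stood apart, and chance gives about 1 in 20. The mean log2 level of the mitochondrially encoded genes in the DMSO library of passage 11 was -0.54 relative to the DMSO mean, against 0.13 to 0.25 in the other 3. *Atp6v1h* was at 45.1 CPM in the torin1 library of passage 8, *Crebrf* at 44.4 CPM in the torin1 library of passage 11 and *Sesn3* at 40.1 CPM in the DMSO library of passage 11.

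Of the 16 largest changes, 7 differed between the genotypes in their response to torin1 by edgeR's test of the interaction. Over all genes the response was lower in DKO for 6.33% and higher for 4.68%. The 16 genes were chosen by their change in WT, which the interaction subtracts. That choice may favour smaller changes in DKO, so the 7 of 16 cannot be set against those shares. The log2 fold change in DKO minus that in WT was -3.98 for *Gpnmb* (adjusted p = 4.22e-07), -1.46 for *Gfra1* (adjusted p = 2.14e-04) and -1.06 for *Idua* (adjusted p = 1.14e-04). It was -0.80 for *Crebrf* (adjusted p = 3.68e-05) and -0.71 for *Ccn3* (adjusted p = 0.0137), so each of these 5 genes, which rose in WT, had a lower log2 fold change in DKO. For *Ddit4* the difference was -0.58, a larger fall in DKO (adjusted p = 0.0490), and for *Chac1* it was 0.70, a smaller one (adjusted p = 0.0395).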

How the results depend on the processing

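The numbers of genes up and down (4100 and 3153) stayed within 1.5 times of these under every alternative but 1, with 3097 to 5021 up and 2315 to 4320 down. The exception, an FC of at least 2, left 1087 and 255. With each library left out in turn they were 3807 to 4131 up and 3094 to 3406 down, and without both libraries of passage 11, 3666 and 3374. Of the 4100 and 3153 genes, 3884 and 3129 were also called by DESeq2's Wald test and 4029 and 3122 by limma voom. Library size alone kept all 4100 genes up and 2337 of the 3153 down, and the upper quartile 4100 and 2464. Of 197 named genes that were called, 174 kept their call under every alternative filter, scaling, fit and set of libraries that tested them.

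Replicate numbers did not pair the libraries, since deviations from the group means correlated at -0.36 to 0.26 between libraries of the same number. A replicate block gave 4106 genes up and 3153 down. Libraries of the same passage correlated at 0.25, 0.29, 0.04 and 0.64 (passages 7, 8, 9 and 11), and passage as a block within genotype gave 4392 and 3261. That block raised the interferon-stimulated genes called up from 1 to 30 of 40.

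The median of the mitosis list turned from -0.0439 to 0.0477 with library size alone and 0.0334 with the upper quartile, and that of the MTORC1 and MTORC2 pathway from -0.0414 to 0.0491 and 0.0351, scalings that moved the median of all genes to 0.14 and 0.13. That of cytosolic ribosomal proteins was -0.0013 to 0.0504 with 1 library left out, and below 0 without the torin1 library of passage 7. The cause was not tested. Depth limits genes of low level, whose median standard error of log2 fold changes was 0.34 in the lowest quintile and 0.04 in the highest.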
